A study of Bos taurus with 6 samples.

Results

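CD antigens are surface proteins of leukocytes and of the cells that leukocytes meet, numbered in the order in which antibodies to them were grouped. On a bovine cDNA microarray, the genes of this set were taken as those whose symbol is CD followed directly by a digit, counting spots whose annotation names a single gene. This gave 56 genes, represented by 86 of the 19200 spotted features, among 8397 genes with a single symbol. A further 5 features carried several symbols, 3 of them with CD151 and 2 listed under a pair of gene numbers for CD82, and stayed out. The 33 genes with 1 feature and the 23 with 2 to 4 features each gave 1 value per array, the mean of their features.

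The series was a first test of the array, with total RNA of bovine adrenal tissue in both channels or of bovine lymph tissue in both channels. The labels give 3 arrays per tissue, no treatment, and neither breed, age, sex nor kind of lymph tissue, and they do not say whether the arrays of a tissue came from different animals. A p-value here thus reflects array-to-array spread alone, possibly technical. The columns labelled adrenal 2 and lymph 3 agreed in every one of 19200 rows, so they were counted once, as an array of unknown tissue called the shared array, and the tissue comparisons used adrenal 1 and 3 and lymph 1 and 2. Where a pair of values is given for a tissue, it follows that order of arrays.

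Each value is a log ratio of the 2 channels of a spot, set to an array median of 0. The base of the logarithm and the dye of the numerator are not given in the sources used here. Values are thus in deposited log units, and above or below 0 names a side without naming a channel. Nor is it given whether the numerator dye was the same on every array. Comparisons and averages across arrays take it to be the same. Because both channels held the same tissue, a value records how far the channels differed for that spot and holds no level of expression. Whether a tissue held fewer cells of a type or less RNA per cell cannot be told apart in bulk RNA. Neither can be read from these ratios, and whether signal strength shifted the ratios was not tested. Because the ratios hold no level, the lymphocyte, myeloid, cortex and medulla markers could not check the tissue labels.

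In lymph tissue CD antigens divide the work of recognition: the T cell receptor signals through the CD3 chains and CD247, with CD4 or CD8 as co-receptor, and the B cell receptor signals through CD79A and CD79B. Costimulatory pairs such as CD40 and its ligand then set the strength of a response, while tetraspanins organise these proteins in the membrane. The adrenal gland, of steroid-producing cortex and catecholamine-producing medulla, holds resident macrophages and endothelium that carry some of the same antigens.

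The CD antigen genes spread about 0 much as other genes did. Of the 8318 genes with a value on both arrays of each tissue, all 56 members among them, the SD on single arrays ran from 0.0755 to 0.177, and that of the CD antigen genes from 0.0725 to 0.174. The widest array was lymph 1 and the narrowest the shared array in both cases. The median of the CD antigen genes was 0.0013 and 0.037 in adrenal, 0.056 and 0.058 in lymph, and -0.012 on the shared array, where that of all genes lay between 0.0022 and 0.0064. On lymph 2, 37 of 56 members stood above 0 (66.1%, against 51.2% of all genes), and on the shared array 25 of 56 (44.6%, against 51.4%). The members thus lay a little to the upper side on both lymph arrays and on adrenal 3, and to the lower side on the shared array.

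**Figure D1:**
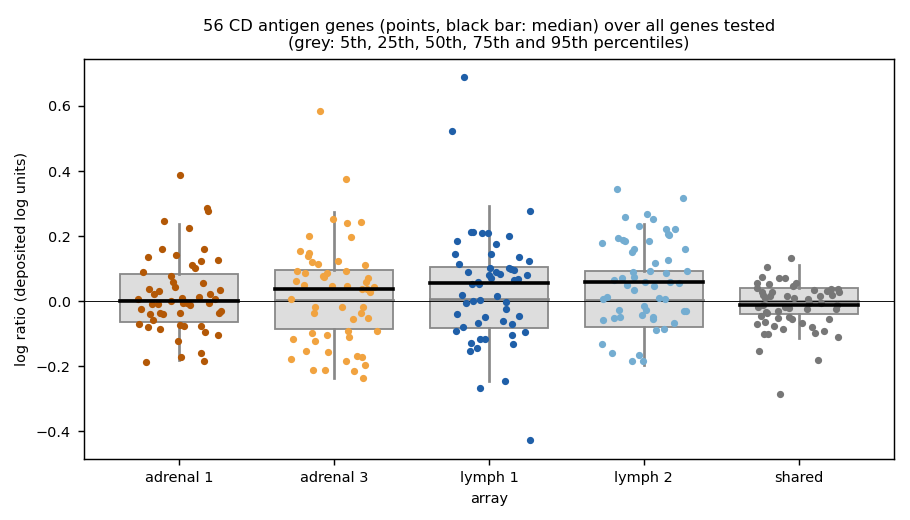
Log ratio of each of the 56 CD antigen genes (points) on the 5 distinct arrays, with their median (black bar), over the spread of all 8318 genes tested (grey, with the percentiles named in the plot's title). The members' median lies between -0.012 on the shared array and 0.058 on lymph 2, with CD48 and CD46 on lymph 1 and CD8A on adrenal 3 above 0.5.

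No member lay beyond 1 log unit on any array, as 0.168% of all genes did. Beyond 0.5 log units lay 3 members (2.54% of all genes did), each on 1 array: CD8A at 0.58 on adrenal 3, where 0.625% of all genes did, and CD46 at 0.52 and CD48 at 0.69 on lymph 1, where 1.41% did. The lowest value of a member was that of CD38, at -0.43 on lymph 1.

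Among the 13 T and NK cell receptors, CD8A had the highest mean, 0.31 ± 0.20 (SD, n = 5 arrays). CD8A codes for the alpha chain of the co-receptor that binds MHC class I, and its 1 feature stood at 0.29 and 0.58 in adrenal, 0.28 and 0.34 in lymph, and 0.037 on the shared array. All 5 arrays were above 0, the tissues overlapped, and the shared array was the lowest. CD8B, the beta chain of the same co-receptor and the neighbouring gene, stood at 0.10 and 0.12 in adrenal, 0.083 and 0.011 in lymph, and -0.055 on the shared array, so that both adrenal arrays were above both lymph arrays. Neither of its 2 features showed this alone. The first stood at 0.060 and -0.034 in adrenal and -0.15 and 0.041 in lymph. The second stood at 0.14 and 0.28 in adrenal and 0.31 and -0.019 in lymph. CD2, the adhesion receptor for CD58, was the other gene of the group above 0 throughout, at 0.060 and 0.0071 in adrenal, 0.21 and 0.16 in lymph and 0.017 on the shared array. Its lymph arrays were both higher than its adrenal arrays. CD96, a receptor for nectin-like proteins, came near CD8A on lymph 2, with -0.093 and 0.12 in adrenal, 0.052 and 0.32 in lymph and -0.0064 on the shared array.

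The CD3 chains, which carry the signal of the T cell receptor and lie next to each other in the genome, did not keep to one side. CD3E stood at -0.12 and 0.036 in adrenal, at 0.067 and 0.058 in lymph, and at -0.29 on the shared array, the lowest value of any member there. CD3G stood at -0.029 and -0.051 in adrenal, at 0.10 and 0.12 in lymph, and at -0.10 on the shared array. In CD3E and CD3G both lymph arrays were above both adrenal arrays, while in CD3D they were below, at -0.13 and -0.047 against -0.035 and 0.030. CD247, the zeta chain, had the lowest mean of the group at -0.069 ± 0.13 (SD over 5 arrays), with lymph 1 at 0.091 and adrenal 3 at -0.24. CD4, the co-receptor that binds MHC class II, ran from -0.18 on lymph 2 to 0.016 on the shared array. Over the 13 genes the median of lymph minus adrenal was 0.10, against a median of -7.0e-05 over all genes tested. Of the 13, 9 were above 0 (50% of all genes were) and 4 below. With limma, 0 of the 13 passed an adjusted p of 0.05 (0% of all genes did). An unadjusted p under 0.05 was reached by 0 of them (4.82% of all genes reached it).

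The 8 costimulation and checkpoint genes held the highest value of any member on a single array, that of CD48. CD48, a ligand of CD2 and CD244, stood at -0.172 and -0.171 in adrenal, 0.69 and -0.16 in lymph and 0.052 on the shared array. Lymph 1 stood alone, above every other array of the gene. CD58, the adhesion ligand of CD2, was at 0.23 and 0.20 in adrenal and at -0.13 and 0.20 in lymph, with -0.077 on the shared array, and had the highest mean of the group, 0.084 ± 0.17 (SD, n = 5 arrays). CD40LG, the T cell ligand of CD40, had the lowest, -0.080 ± 0.12. CD27, a receptor of the TNF family, was higher on both lymph arrays (0.20 and 0.16) than on both adrenal arrays (-0.16 and 0.15). CD276, a checkpoint ligand, was at -0.0058 and 0.38 in adrenal, -0.14 and 0.26 in lymph and -0.091 on the shared array. CD200, an inhibitory ligand, was at 0.28 and 0.048 in adrenal, -0.060 and 0.073 in lymph and 0.030 on the shared array. The tissues overlapped in both, as they did in CD40 and CD86. Of the 8 genes, 3 were above 0 in lymph minus adrenal (50% of all genes were) and 5 below.

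In the B lineage, CD79A and CD79B, the signalling pair of the B cell receptor, did not move together. CD79A stood at -0.0051 and 0.24 in adrenal and 0.019 and 0.27 in lymph, with -0.0065 on the shared array. CD79B stood at 0.39 and -0.16 in adrenal and -0.27 and 0.21 in lymph, with 0.070 on the shared array. For both genes the arrays of a tissue differed by more than the tissues did. CD38, an ectoenzyme that degrades NAD, had the lowest mean of all members but CD14, -0.10 ± 0.20 (SD, n = 5), with 0.12 and -0.11 in adrenal, -0.43 and -0.068 in lymph, and -0.031 on the shared array. CD22, an inhibitory lectin with 3 features, and CD72 ran from -0.066 to 0.0022 and from -0.090 to 0.074.

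The antigen presentation and myeloid receptors held the members that were below 0 throughout. CD14, the co-receptor for bacterial lipopolysaccharide, stood at -0.10 and -0.20 in adrenal, -0.10 and -0.031 in lymph and -0.18 on the shared array. CD1B, which presents lipids to T cells, stood at -0.039 and -0.12 in adrenal, -0.066 and -0.089 in lymph and -0.15 on the shared array. Both genes overlapped between tissues. One of the 2 features of CD1B had no value on the shared array. On adrenal 3 that feature lay at 0.20 and the other at -0.44. The gene mean of CD1B on adrenal 3 thus joins features on opposite sides of 0. CD163, the haemoglobin scavenger receptor of macrophages, had the highest mean of the 10 genes at 0.066 ± 0.052 (SD, n = 5). CD302 came close behind at 0.0655. The 2 features of CD163 had means of 0.0059 and 0.13, and stood at -0.23 and 0.31 on adrenal 3. CD74, the invariant chain of MHC class II, lay between -0.22 and 0.10. The lowest value of CD74, on adrenal 3, rests on 1 of its 2 features, since the other had no value there. Over their arrays these features had means of 0.051 and -0.072. CD93, found on endothelium and myeloid cells, was the only gene of the group in which the tissues did not overlap, with 0.071 and -0.053 in lymph against -0.057 and -0.092 in adrenal. Its 4 features were not alike. The widest gap was in 1 of them, at 0.27 and 0.16 in lymph against -0.079 and -0.11 in adrenal. Another overlapped, at 0.030 and -0.14 in lymph against -0.019 and -0.038 in adrenal.

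**Figure D2:**
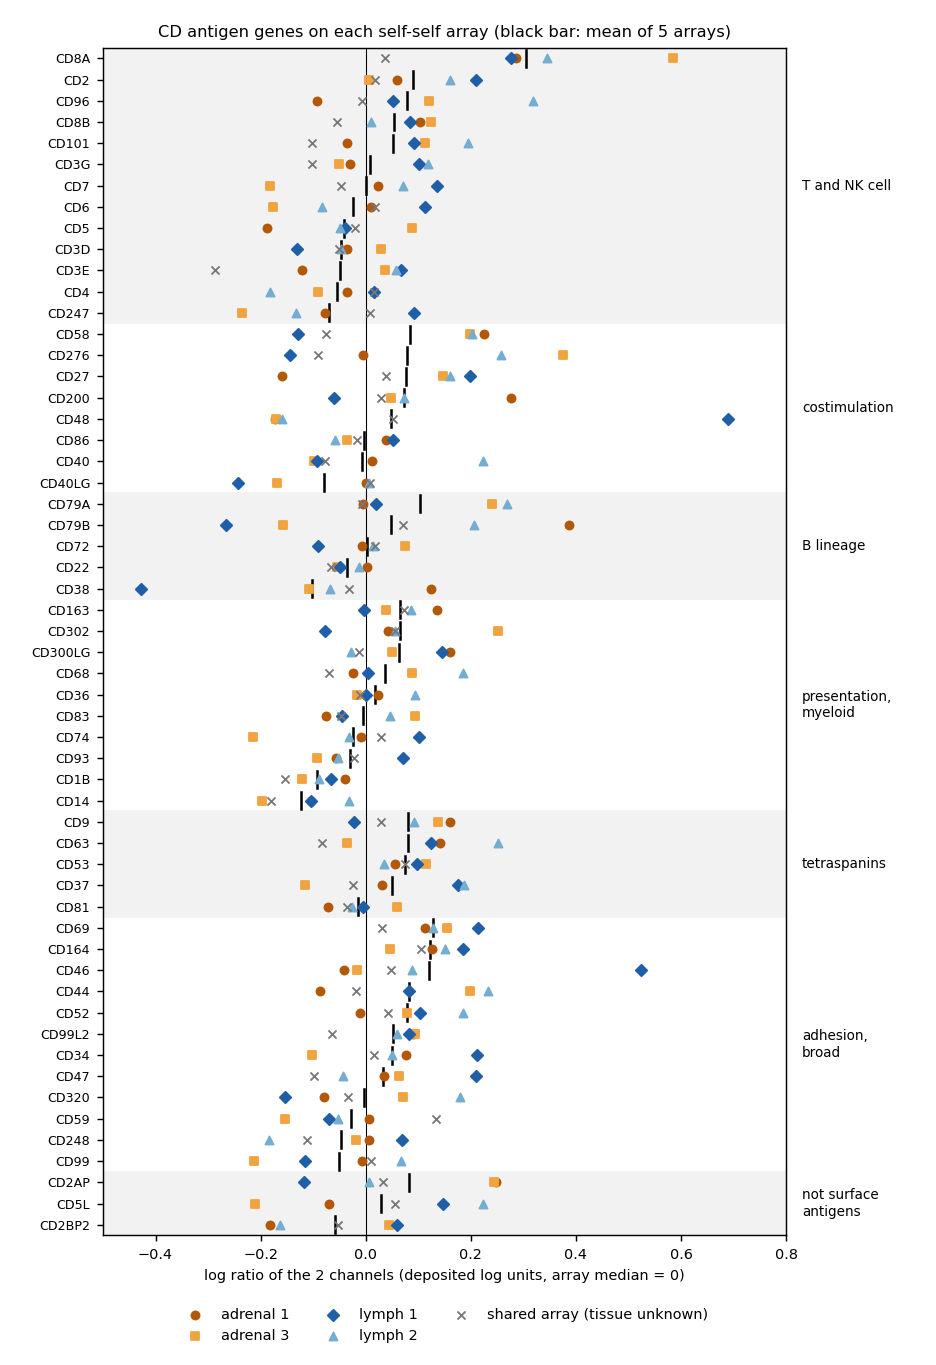
Log ratio of each CD antigen gene (rows, grouped by role and ordered by mean) on each of the 5 distinct arrays (symbols), with the mean of the 5 arrays as a black bar. CD8A has the highest mean, 0.31, CD14 the lowest, -0.12, and CD48 and CD46 on lymph 1 lie far to the right of the other arrays of the same gene.

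Of the 5 tetraspanins, CD53 was above 0 on all arrays and varied least. This leukocyte tetraspanin stood at 0.056 and 0.12 in adrenal, 0.097 and 0.035 in lymph and 0.075 on the shared array. CD37, which B cells carry, stood at 0.031 and -0.12 in adrenal, 0.18 and 0.19 in lymph and -0.024 on the shared array, so lymph was above adrenal without overlap. CD9 went the other way, with 0.16 and 0.14 in adrenal, -0.022 and 0.092 in lymph and 0.030 on the shared array. CD63, of lysosomes and exosomes, was highest on lymph 2 at 0.25, and CD81, a broadly expressed tetraspanin, had the lowest mean of the group at -0.016 ± 0.048 (SD, n = 5).

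Among the 12 adhesion, complement control and broadly expressed genes, CD69 and CD164 were above 0 on every array. CD69, an early activation antigen that holds lymphocytes in tissue, stood at 0.11 and 0.15 in adrenal, 0.21 and 0.13 in lymph and 0.032 on the shared array. CD164, a sialomucin, stood at 0.13 and 0.047 in adrenal, 0.18 and 0.15 in lymph and 0.11 on the shared array. CD46, which protects cells from complement, stood at -0.041 and -0.017 in adrenal, 0.52 and 0.089 in lymph and 0.048 on the shared array. Lymph 1 stood apart from the others (1 array did so in 3 members, and in 7.45% of all genes), and on it the 2 features of CD46 were at 0.34 and 0.71. CD52 was also higher on both lymph arrays, and CD99L2 lower, with -0.021 between the tissue means. The features of CD99L2 differed. The first was lower in lymph, at -0.079 and 0.10 against 0.17 and 0.20 in adrenal. The second was higher, at 0.078 and 0.060 against -0.14 and 0.034. CD99, which helps leukocytes cross endothelium, had the lowest mean at -0.052 ± 0.11 (SD, n = 5), and 1 of its 3 features had no value on adrenal 3 and lymph 1. CD34, CD44, CD47, CD59, CD248 and CD320 overlapped between tissues. In lymph minus adrenal, 10 of the 12 genes were above 0 (50% of all genes were), with a median of 0.059, against -7.0e-05 over all genes tested. With limma, 0 of the 12 reached an unadjusted p under 0.05 (4.82% of all genes did).

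The rule also took in 3 genes that are not surface antigens of leukocytes but bear the name of one. CD5L, a protein that macrophages secrete, stood at -0.070 and -0.21 in adrenal, 0.15 and 0.22 in lymph and 0.057 on the shared array. CD2AP, a cytoplasmic adaptor of CD2, stood at 0.247 and 0.245 in adrenal, -0.12 and 0.0066 in lymph and 0.034 on the shared array. CD2BP2, which binds the tail of CD2, stood between -0.18 and 0.060 and overlapped between tissues. Lymph and adrenal did not overlap in CD5L and CD2AP, in opposite directions.

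Lymph minus adrenal compared the tissues. With limma and Benjamini-Hochberg adjustment over 8318 genes, 0 of 56 members passed an adjusted p of 0.05 (0% of all genes did). An unadjusted p under 0.05 was reached by 2 members, 3.57% of them against 4.82% of all genes tested, 1 above 0 (2.46% of all genes) and 1 below (2.36%). The count was 5 without lymph 2 (7.98% of all genes) and 1 without adrenal 1 (5.77%), adrenal 3 (2.69%) or lymph 1 (4.19%). CD5L had lymph minus adrenal at 0.32 ± 0.10 (SE, 2 arrays per tissue; limma adjusted p = 0.941), with a 95% interval from 0.079 to 0.57. CD2AP had -0.30 ± 0.10 (SE; limma adjusted p = 0.941). This value rests on an empty cell: 1 of its 2 features, at 0.48 and 0.39 in adrenal, had no value on lymph 1, and with that feature left out the difference was -0.15 (limma adjusted p = 0.955). Neither of the 2 genes is a surface antigen of leukocytes. Next in order of p came CD46 at 0.34 ± 0.15, CD37 at 0.22 ± 0.10 and CD48 at 0.44 ± 0.24 (limma adjusted p = 0.941, 0.941 and 0.950). Without lymph 1 the difference of CD46 was 0.12 and that of CD48 was 0.012.

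Both lymph arrays were above both adrenal arrays in 12 members (21.4%, against 16.3% of all genes) and below them in 5 (8.93%, against 17%). In 3 of the 12, CD3G, CD5L and CD46, the lymph arrays were above 0 and the adrenal arrays below (5.36%, against 5.77% of all genes), and in 0 the reverse (5.22% of all genes). The lymph side held CD2, CD3E, CD3G, CD7, CD27, CD37, CD46, CD48, CD52, CD93, CD164 and CD5L, and the adrenal side CD3D, CD8B, CD9, CD99L2 and CD2AP. The median difference of the 56 genes was 0.022, with 33 above 0 (50% of all genes were) and 23 below, or 0.026 without the 3 genes that are not surface antigens. Without adrenal 3 it was 0.045. On all 6 columns it was 0.015, but there the same column enters both tissues. This shrinks every difference in the same proportion, so the value adds no evidence. Between single arrays, the median absolute difference of the members was 0.121 in adrenal and 0.119 in lymph, and between the tissue means, each an average of 2 arrays and so less variable, it was 0.0921. Over all genes these were 0.105, 0.119 and 0.0841.

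**Figure D3:**
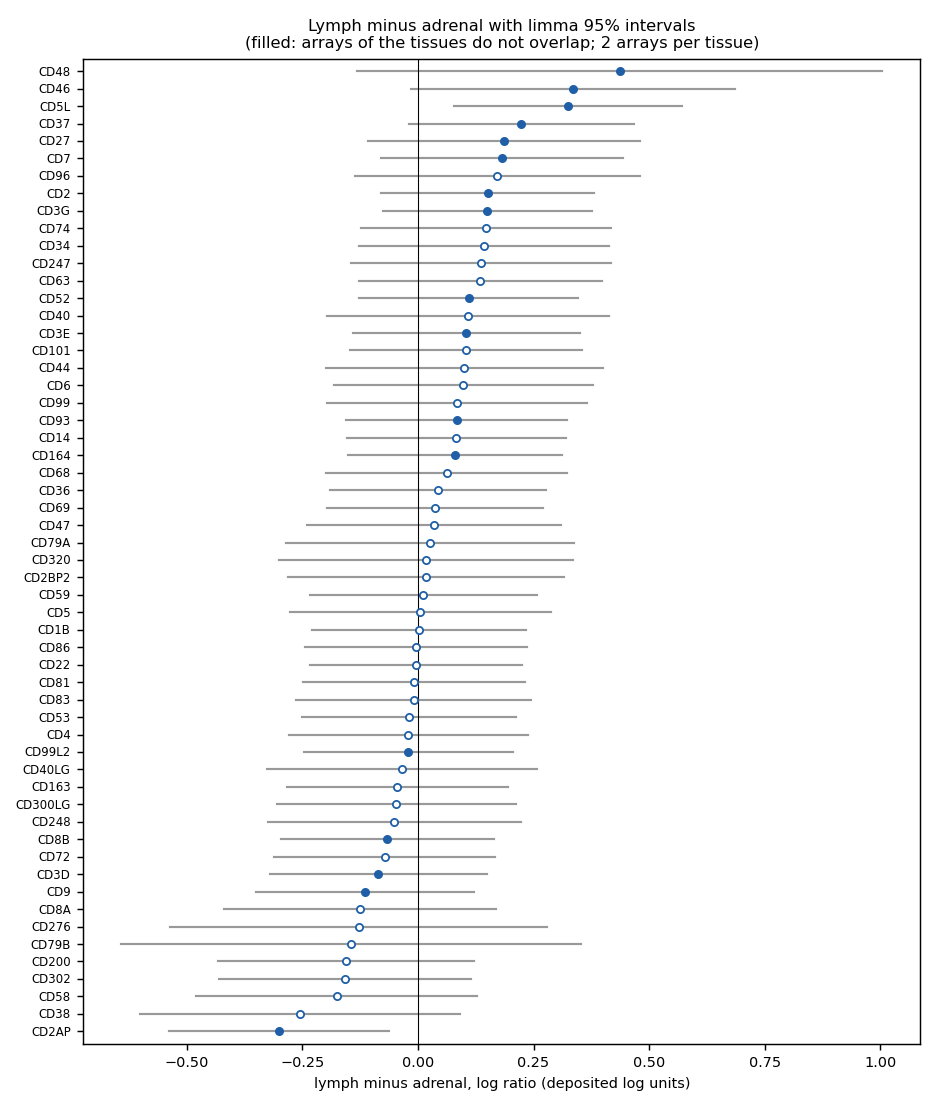
Difference of the tissue means (lymph minus adrenal, 2 arrays each) for each of the 56 CD antigen genes, with limma's 95% interval as a line and filled points where the arrays of the tissues do not overlap. The intervals of CD5L (0.079 to 0.57) and CD2AP (-0.54 to -0.063) leave out 0, before any adjustment for the number of genes, and those of all other members include it.

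The median half-width of those intervals, before adjustment, was 0.26 log units. The same test was run at an adjusted p of 0.05 on data made for the purpose, with the spread of these arrays. There the test found 0% of genes shifted by 0.5 log units. Of those shifted by 1 log unit it found 70.8%, with 3.8 false calls per simulation. These rates depend on the spread set in the made data, and SDs from so few arrays are imprecise. Whether a difference of 0.5 log units would be found on the real arrays was not tested.

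In lymph against lymph, members lay above 0 more often than genes in general, and none passed the test. The median of the members was 0.044 (0.0059 for all genes), or 0.016 on all 6 columns, 36 were above 0 (52.3% of all genes were) and 20 below, and 23 were above 0 on both lymph arrays (41.1%, against 28.6% of all genes) and 8 below 0 on both (14.3%, against 25.2%). With limma 0 members had an adjusted p under 0.05 (0% of all genes had), and 9 had an unadjusted p under 0.05, 16.1% against 8.02% of all genes. Of these 8 were above 0 (14.3%, against 5.51%): CD8A, CD46, CD2, CD5L, CD37, CD69, CD164 and CD63. The 1 below 0 was CD38 (2.51% of all genes). CD8A was at 0.31 ± 0.09 (SE, n = 2; limma adjusted p = 0.601), CD46 at 0.31 ± 0.11, CD2 at 0.18 ± 0.07, and CD5L and CD37 at 0.18 each. Adjusted p-values of the last 4 ran from 0.616 to 0.617 with limma. The count of 9 fell whenever 1 array was left out, to 2 without lymph 1 (5.44% of all genes), 3 without lymph 2 (10.7%), 3 without adrenal 1 (6.84%) and 3 without adrenal 3 (6.85%). It was 6 with the values as deposited, not centred (7.72%), and 6 with arrays scaled to 1 spread (6.91%). With single features in place of gene means, 7 of 83 features had an unadjusted p under 0.05 with limma (7.72% of all features). Of these features 6 were above 0 (7.23%, against 5.2%).

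In adrenal against adrenal, the members had a median of 0.0022 (0.0029 for all genes), whose sign turned with values not centred (-0.0063), and which was 0.037 without adrenal 1, with 29 above 0 (51.4% of all genes were) and 27 below. They were above 0 on both adrenal arrays in 15 genes (29.1% of all genes) and below 0 on both in 11 (26.4% of all genes). With limma 0 members passed (0% of all genes did), and 2 had an unadjusted p under 0.05, 3.57% against 7.36% of all genes, 2 of them above 0 (5.49%) and 0 below (1.86%). The count was 4 without lymph 1 (8.07% of all genes) and 4 without lymph 2 (8.03%). CD8A was at 0.44 ± 0.09 (SE, n = 2; limma adjusted p = 0.569). CD2AP was at 0.25 ± 0.07 (limma adjusted p = 0.588), and at 0.055 on its feature with a value on every array. CD58 at 0.21, CD14 at -0.15 and CD9 at 0.15 followed, with limma adjusted p from 0.683 to 0.702. The difference of CD8A between tissues was -0.12 ± 0.13 (SE), with a 95% interval from -0.42 to 0.17.

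The average of the 5 distinct arrays also called 0 members with limma (0% of all genes), and 5 had an unadjusted p under 0.05, 8.93% against 9.83% of all genes, 3 above 0 (7.14%) and 2 below (2.69%). The count was 8 without lymph 1 (9.03% of all genes) and 3 without the shared array (10.1%). CD8A stood at 0.31 ± 0.07 (SE, n = 5; limma adjusted p = 0.299), with a 95% interval from 0.15 to 0.46. CD164 stood at 0.12 ± 0.04, CD69 at 0.13 ± 0.04, CD14 at -0.12 ± 0.04 and CD1B at -0.094 ± 0.037, with limma adjusted p from 0.366 to 0.469. CD1B was at -0.18 on the feature with a value on every array. Above 0 on all 5 arrays were CD2, CD8A, CD53, CD69 and CD164 (8.93% of the members, 7.04% of all genes), and below 0 on all 5 were CD1B and CD14 (3.57%, against 3.96%). Over all members the average had a median of 0.035, against 0.0049 for all genes, with 34 above 0 (53.3% of all genes were), and leaving CD8A out made it 0.033. With 1 array left out this median ran from 0.0090 without lymph 2 to 0.044 without the shared array. It was 0.020 without lymph 1 and 0.019 with arrays scaled to 1 spread.

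Features that share a gene gave a further view of the spread, since they are different cDNA spots for the same transcript on the same array. For the members with several features, the SD of features within a gene was 0.138 and 0.209 in adrenal, 0.162 and 0.140 in lymph and 0.0939 on the shared array. The SD of the same features pooled, ignoring their gene, was 0.135, 0.201, 0.187, 0.142 and 0.0896. The ratio of the first to the second lay between 0.866 on lymph 1 and 1.05 on the shared array, and between 0.986 and 1.01 for all genes with several features. Spots of the same gene were about as far apart as spots of different genes.

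The features of a gene were all on one side of 0 in 10 of 23 members on adrenal 1 (43.5%, against 43.3% of all genes with several features), and in 12 of 22 on lymph 1 (54.5%, against 42.7%). Averaged over arrays, the features of 15 members lay on one side and those of 8 on both. CD2, CD37 and CD46 had their features on one side, at 0.076 and 0.10 for CD2 and at 0.099 and 0.14 for CD46, while the 3 features of CD37 ran from 0.034 to 0.070. On single arrays they were less alike. In adrenal the features of CD46 stood at -0.12 and 0.27 for the first and 0.038 and -0.31 for the second, so its adrenal means, both below 0, join spots on opposite sides. One feature of CD37 stood at -0.034 and -0.32 in adrenal and 0.38 and 0.21 in lymph, a difference of 0.47 between tissues, where another stood at 0.12 and 0.051 in adrenal and 0.011 and 0.19 in lymph. The features of CD8B lay at -0.031 and 0.14, those of CD40 at -0.097 and 0.083, and those of CD2AP at -0.019 and 0.26. On lymph 1 the 3 features of CD22 stood at 0.017, 0.20 and -0.37, and their mean of -0.049 hid that range. CD8A, CD14, CD48, CD69, CD164, CD53 and CD5L each rest on 1 feature.

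**Figure D4:**
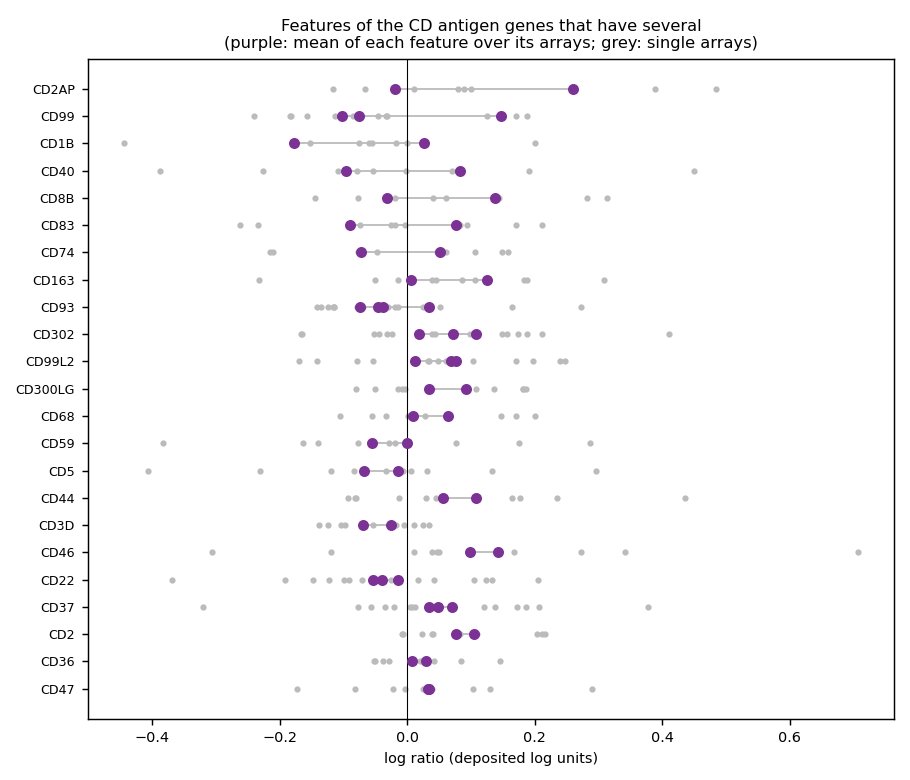
Log ratios of single features of the 23 CD antigen genes with 2 to 4 features: each purple point is the mean of 1 feature over its arrays, joined by a line within a gene, and grey points are single arrays. The means of the features lie within 0.00036 of each other for CD47 and 0.28 apart for CD2AP.

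Genes that belong with the CD antigens by function but carry other symbols were described by counts and medians alone. Of 59 listed CD antigens under other symbols, such as PTPRC and the integrin chains, 33 were on the array with a value on all tissue arrays, and 0 passed any of the comparisons with limma. Their median was -0.0019 in lymph minus adrenal, with 16 above 0 (50% of all genes were) and 17 below. At an unadjusted p under 0.05 with limma, 3 were above 0 (2.46% of all genes were) and 0 below (2.36%). In lymph against 0 their median was -0.0047, with 1 above 0 and 0 below at that p (5.51% of all genes were above 0 at it). The 18 measured signalling partners of the T and B cell receptors, among them LCK and BTK, had a median of 0.0077 in lymph minus adrenal and 0.00092 in lymph, and 0 were called. The 10 lymphocyte genes without a CD symbol, which overlap those 2 lists, had a median of 0.055 in lymph against 0, the 7 adrenal cortex genes 0.028 in adrenal against 0, and the 10 medulla genes -0.0046 in adrenal against 0 and 0.082 in lymph against 0, and 0 were called in any of these.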

How the data were processed

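The deposited table holds 1 value per feature and array for 19200 features and 6 columns. From the values, these deposited numbers are log ratios of 2 channels. How the arrays were scanned, corrected and normalised, and the logarithm and dye order, are not given in the sources used here. Neither slide nor scan is named. Features were named through the platform annotation in GEO: 12630 features had 1 symbol, 224 several and 6346 none. All 86 CD antigen features matched a RefSeq gene number (ARS-UCD2.0), with 0 symbols changed. Gene order came from the same table.

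Arrays were centred on their medians and features of a gene averaged. limma 3.58.1 in R 4.3.3 (lmFit, eBayes) fitted 1 coefficient per tissue on 4 arrays, and 1 coefficient on the 5 distinct arrays, two-sided, with Benjamini-Hochberg adjustment at 0.05 over the 8318 genes with values on both arrays of each tissue. Each SE is limma's moderated one. The test was tried on simulated data with 200 shifted genes among 8318. Python 3.11.15, numpy 2.4.6, pandas 2.3.3 and matplotlib 3.10.9 made the summaries and plots. The number of arrays limits the precision.

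Named genes were those with the highest and lowest mean in each role list, the 5 smallest p-values per comparison and those on one side of 0 on all 5 arrays; other genes are described for completeness of a role and were not chosen by the rule. The members and lists were chosen with earlier results of these data known. CD8A had already been seen above 0 on every array, so this is no independent support. Alternatives changed the centring, scaling, averaging of features, filter on empty cells, estimate of the spread, arrays and columns. The alternative with complete features was chosen after seeing the data. No feature sequences were used here.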

Additional observations from a re-analysis of the deposited data

Results flagged for a closer look

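Over the 5 distinct arrays, 2 of the 22 genes named by rule had an array far from the other 4, with a gap to the nearest array above 0.71 of the range (Dixon's 95% value for 5 samples). CD46 stood at 0.52 on lymph 1, and CD48 at 0.69 on lymph 1. Chance marks about 1 in 20 groups, and 7.45% of all genes tested were marked, against 3 of the 56 members. The third was CD99L2, low on the shared array at -0.064. Lymph 1 was also the array with the widest spread over all genes, an SD of 0.177, and the part of that spread in these values was not tested.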

How the results depend on the processing

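The count of CD antigen genes called was 0 in all 4 comparisons under every alternative run, with a smallest adjusted p between 0.189 and 1.00 by setting. Over all genes the count rose from 0 to 1 in adrenal against 0 with no filter on empty cells. With 1 array left out it ranged from 0 to 5 in lymph minus adrenal, 0 to 5 in adrenal and 0 to 2 in lymph; that leaves a tissue with 1 array, which is assumed to vary like the other tissue. The median of the members in adrenal ranged from 0.0013 to 0.037 with 1 array left out, and it was -0.0063 with values not centred, -0.00053 with arrays scaled and -0.0039 on all 6 columns. The 5 genes with the smallest p in each comparison kept their direction under every alternative run on gene values. With single features, only the feature of each gene with the smallest p was checked. The other feature of CD1B had a mean of 0.027, against -0.094 for the gene in the average. On all 6 columns the direction of lymph minus adrenal could not turn, since the same column enters both tissues. Members at an unadjusted p under 0.05 ranged from 1 to 5 in lymph minus adrenal, 2 to 4 in adrenal, 2 to 9 in lymph and 3 to 8 in the average; the cause was not tested. Replicate numbers could not be shown to pair the arrays, since adrenal 2 and lymph 3 are the same column: on all 6 columns the deviations of same-numbered arrays correlated at 0.0769, -0.178 and -0.144. With the replicate block on all 6 columns, 0 genes were called in each comparison, and lymph minus adrenal had an unadjusted p under 0.05 in 235 genes, against 158 without the block. Signal over background was not used here.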
